A study of Mus musculus with 8 samples.

Results

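The genes described here are 5 Krüppel-like factors and 2 receptors for sphingosine-1-phosphate (S1P): Klf2, Klf3, Klf6, Klf10, Klf13, S1pr1 and S1pr4. They were chosen by name, and each was read from the probe set whose only gene symbol in the platform annotation is that gene. All 7 were found, each with 1 probe set, among 19938 genes that could be named. Whole-transcript Affymetrix arrays were used to measure mRNA in CD4 T cells of the mouse. The KO group (4 arrays) came from mice with a conditional Bcl6 deletion in T cells, and the WT group (4 arrays) from wild-type mice. Cells of both groups were sorted as naive CD4 T cells and then stimulated for 24 hours through CD3 and CD28 in the presence of IL-6 and IL-21, while IL-4, TGF beta and interferon gamma were blocked by antibodies. The Cre line, the age of the mice and whether each array is a separate mouse are not given in the sources used here, so p-values reflect only the spread among these arrays, part of which may be technical. Fewer cells of a type and less RNA per cell cannot be told apart in such bulk samples.

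Krüppel-like factors bind GC-rich and CACCC-type DNA through zinc fingers at the C-terminal end of the protein, and differ in the activators or corepressors that they recruit. Klf2 is the family member best known in T cells: it is kept on in naive cells by the transcription factor Foxo1, is shut off after T cell receptor stimulation, and drives S1pr1. S1pr1 is the receptor through which lymphocytes sense the S1P of blood and lymph and leave lymphoid organs. In mice, Klf2 and S1pr1 are known to restrain the follicular helper T (Tfh) fate that Bcl6 promotes, and the comparison bears on the transcripts of this circuit when Bcl6 is deleted.

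The promoter windows of Klf2 and Klf6 are shown because these were the members whose KO and WT arrays did not overlap. They run from 250 bases before to 50 bases after the annotated start, on the plus strand of GRCm38.p6, at chr8:72318812-72319111 for Klf2 and chr13:5861239-5861538 for Klf6 (RefSeq). Capitals mark the CACCC box (CACCC, or GGGTG on the other strand), the GC box (GGGCGG, or CCGCCC on the other strand) and the Mef2 element, searched by its consensus on both strands. No marked matches overlap in these windows.
Klf2: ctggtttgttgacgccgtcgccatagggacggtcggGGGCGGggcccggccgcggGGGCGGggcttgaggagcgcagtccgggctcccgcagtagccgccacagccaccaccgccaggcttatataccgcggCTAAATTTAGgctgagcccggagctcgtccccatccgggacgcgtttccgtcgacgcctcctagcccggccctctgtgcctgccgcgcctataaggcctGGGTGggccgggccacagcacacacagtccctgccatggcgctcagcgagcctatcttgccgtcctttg
Klf6: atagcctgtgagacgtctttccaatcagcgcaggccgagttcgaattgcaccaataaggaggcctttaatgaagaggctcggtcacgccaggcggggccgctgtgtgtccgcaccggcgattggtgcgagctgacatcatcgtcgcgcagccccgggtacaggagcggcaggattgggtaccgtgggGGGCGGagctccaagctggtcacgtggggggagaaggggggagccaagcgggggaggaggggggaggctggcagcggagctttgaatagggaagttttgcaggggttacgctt
The Klf2 window held 1 Mef2 element, CTAAATTTAG, whose first base lies at -118 from the start, 1 CACCC box and 2 GC boxes. A match to the Mef2 consensus was in 3.19% of all 32851 windows of that length. The Klf6 window held 1 GC box and neither of the other motifs. A CACCC box was in 57.5% and a GC box in 35.7% of all windows. The core of the Bcl6 element, TTCCNNGAA on either strand, was in 4.81% of all windows and matched in none of the windows of Klf2, Klf3, Klf6, Klf13 and S1pr4, the 5 of 7 members that the table of windows holds. These matches describe letters and were not tested as binding sites.

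Bcl6 itself read 9.08, 9.15, 9.18 and 9.19 on the log2 scale in KO replicates 1 to 4, against 8.61, 8.91, 8.78 and 8.79 in WT replicates 1 to 4. The targeted transcript was thus higher in the KO arrays, by 0.38 ± 0.0645 (SE, limma adjusted p = 0.0303), and the call was lost without KO replicate 2, 3 or 4 or WT replicate 3 or 4 (adjusted p of 0.0591 to 0.11), with no filter (0.0595) and with the replicate block (0.0606). Its probe set is not placed relative to the deleted exons here and does not check the labels, so directions are those of the arrays as labelled. Array medians lay between 7.35 and 7.42. KO replicate 1 stood apart: its median deviation from the other 3 KO arrays was 0.153, and it correlated best with WT replicate 3 (r = 0.993 across genes, which are not independent replicates). Of 9 CD4 T cell and 5 Tfh markers, all 9 and all 5 were above the expression filter in all 8 arrays, while 3 of 4 B cell, 5 of 5 myeloid and 3 of 4 NK cell markers were below it in every array. The 1 erythroid marker on the array, Slc4a1, was above it in all 8 arrays (limma adjusted p = 0.762). Of the NK markers, Eomes read 7.29 to 7.57 in KO arrays and 7.36 to 8.03 in WT arrays, with WT replicate 1 the lowest WT array (limma adjusted p = 0.232). Klrd1, which was below the filter, read 5.35 to 5.59 in KO arrays and 5.65 to 6.14 in WT arrays. The part of the NK markers in the results below was not tested. Both CD8 genes were above it in all 8 arrays. The mean of the 2 CD8 genes lay between 8.35 and 8.61 in the KO arrays and between 8.29 and 8.74 in the WT arrays, and its part in the results below was not tested. The sample titles carry the tag Tfh. Of the 5 Tfh markers none passed (limma), and 2 had positive and 3 negative differences. An unadjusted limma p under 0.05 was found in 3 of the 5, against 16.6% of all tested genes. Pdcd1 was lower in every KO array (10.83 to 11.01) than in every WT array (11.07 to 11.23). Il21 was higher in every KO array, by 0.115, and Sh2d1a differed by 0.285. The part of these markers in the results below was not tested.

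None of the 7 members passed the test of KO against WT over all arrays (limma, Benjamini-Hochberg adjusted p under 0.05 over 11926 tested genes), where 1.32% of all tested genes did. The 3 members with an unadjusted limma p under 0.05 were Klf2, Klf6 and S1pr1. Of all tested genes, 16.6% had such a p. KO and WT arrays did not overlap in 2 of 7 members, Klf2 and Klf6, and in 10.8% of all tested genes. Of the 7 members, 6 had a negative and 1 a positive difference (KO minus WT), with a median of -0.09. Over all tested genes 58.7% of the differences were negative, with a median of -0.02.

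**Figure D1:**
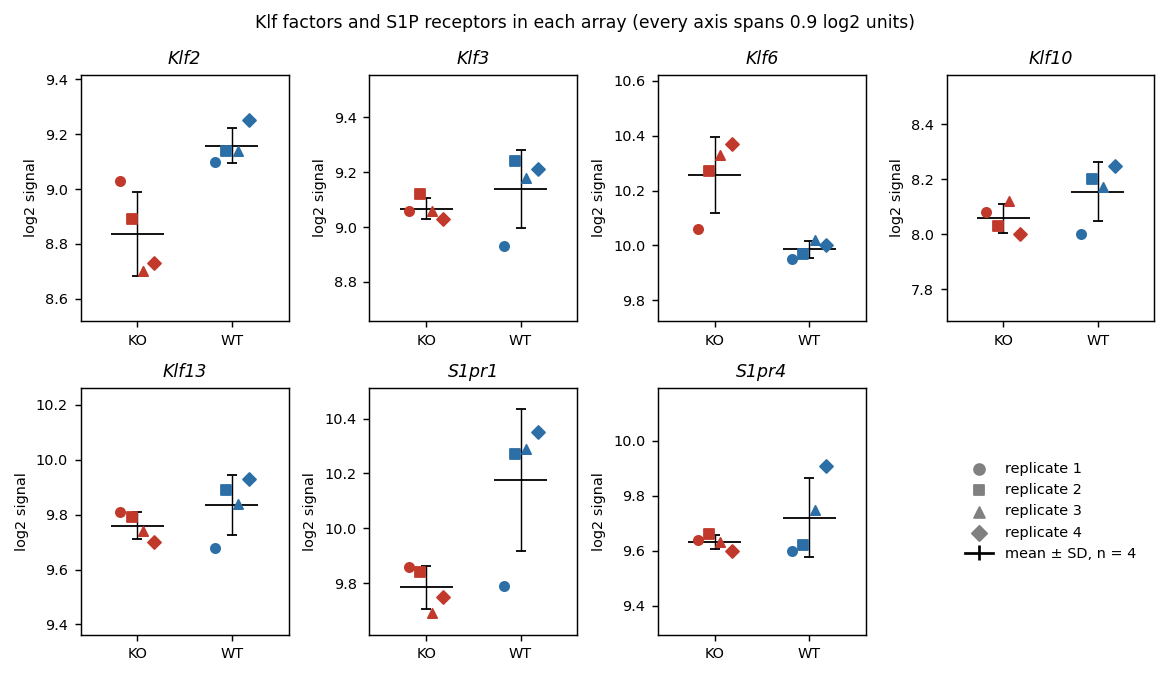
Log2 signal (y axis) of each member in the 4 KO arrays (left, red) and the 4 WT arrays (right, blue), with the marker shape giving the replicate number and the bars the mean ± SD (n = 4). Klf2 is lower and Klf6 higher in every KO array than in every WT array. WT replicate 1 (blue circle) is the lowest WT array in all 7 panels, narrowly so for Klf2, Klf6 and S1pr4.

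Klf2, the zinc-finger factor of naive T cell quiescence and trafficking, read 9.03, 8.89, 8.70 and 8.73 in KO replicates 1 to 4, against 9.10, 9.14, 9.14 and 9.25 in WT replicates 1 to 4. All 4 KO arrays were below all 4 WT arrays, with KO replicate 1 nearest to them. Klf2 averaged 8.84 ± 0.153 in KO arrays and 9.16 ± 0.0645 in WT arrays (SD, n = 4 each), a difference of -0.32 ± 0.0753 (SE, 95% interval -0.49 to -0.15, limma adjusted p = 0.0756). On the linear scale the KO level was 0.801 times the WT level. The exact permutation p was 0.0286, the smallest that 4 against 4 arrays can give. Only 0.948% of tested genes had a difference as low or lower. Without KO replicate 1, the array that stood apart, the difference was -0.38 ± 0.0585 (SE, limma adjusted p = 0.00848). In that fit 6.56% of all tested genes passed. It was also the KO array nearest to WT, so leaving KO replicate 1 out widens the difference by construction. With any other single array left out, the limma adjusted p was 0.119 to 0.211.

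Klf6, a broadly expressed factor induced early after stimulation of many cell types, went the other way. It read 10.06, 10.27, 10.33 and 10.37 in KO replicates 1 to 4, against 9.95, 9.97, 10.02 and 10.00 in WT replicates 1 to 4. Every KO array was above every WT array, and the lowest KO array was again KO replicate 1. Klf6 averaged 10.26 ± 0.138 in KO arrays and 9.99 ± 0.0311 in WT arrays (SD, n = 4 each), a difference of 0.27 ± 0.0672 (SE, 95% interval 0.12 to 0.42, limma adjusted p = 0.0821, exact permutation p = 0.0286), or 1.21 times the WT level. Without KO replicate 1 the difference was 0.34 ± 0.0435 (SE, limma adjusted p = 0.00413), and 6.56% of all tested genes passed in that fit. KO replicate 1 was the KO array nearest to WT, so leaving it out widens the difference by construction. With any other single array left out, the limma adjusted p was 0.133 to 0.243. With all 8 arrays and limma quantile normalization Klf6 passed, at an adjusted p of 0.0181, where 322 of 11926 tested genes passed. Across the 8 arrays, Klf6 and Klf2 were negatively correlated (r = -0.943 over 8 arrays, and -0.80 for deviations from the group means). KO replicate 1 held the highest KO value of Klf2 (9.03) and the lowest KO value of Klf6 (10.06). The correlation without that array was not computed. In the WT group, WT replicate 1 was the lowest array for both genes (9.10 and 9.95). The arrays share the normalization and the group difference, so the correlation is a description.

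The other Krüppel-like factors differed less between the groups. Klf3, a repressor that works with the corepressor CtBP, read 9.06, 9.12, 9.06 and 9.03 in KO replicates 1 to 4, against 8.93, 9.24, 9.18 and 9.21 in WT replicates 1 to 4. The KO values lay inside the range of the WT values. The difference was -0.07 ± 0.069 (SE, 95% interval -0.23 to 0.08, limma adjusted p = 0.677). Klf10, a factor induced by TGF beta, which is blocked in these cultures, read 8.08, 8.03, 8.12 and 8.00 in KO replicates 1 to 4, against 8.00, 8.20, 8.17 and 8.25 in WT replicates 1 to 4. Its groups overlapped through WT replicate 1, with a difference of -0.10 ± 0.0608 (SE, 95% interval -0.23 to 0.04, limma adjusted p = 0.485). Klf13, which is known to activate the chemokine gene Ccl5 in T cells, read 9.81, 9.79, 9.74 and 9.70 in KO replicates 1 to 4, against 9.68, 9.89, 9.84 and 9.93 in WT replicates 1 to 4. WT replicate 1 was the lowest of the 8 arrays, and the difference was -0.08 ± 0.0606 (SE, 95% interval -0.21 to 0.06, limma adjusted p = 0.615). For Klf3, Klf10 and Klf13 the lower end of the interval on the linear scale was between 0.851 and 0.864 times the WT level. The Klf2 estimate of 0.801 lay outside these intervals, but its own interval, 0.713 to 0.90, overlapped them. A difference between the genes was not tested.

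S1pr1 had the lowest difference of the members. It read 9.86, 9.84, 9.69 and 9.75 in KO replicates 1 to 4, against 9.79, 10.27, 10.29 and 10.35 in WT replicates 1 to 4. WT replicate 1 lay inside the KO range, while the other 3 WT arrays were above every KO array. S1pr1 averaged 9.79 ± 0.0794 in KO arrays and 10.18 ± 0.259 in WT arrays (SD, n = 4 each), a difference of -0.39 ± 0.112 (SE, 95% interval -0.64 to -0.14, limma adjusted p = 0.121, exact permutation p = 0.0857), or 0.763 times the WT level. Without WT replicate 1 the difference was -0.52 ± 0.0581 (SE, limma adjusted p = 0.00879). In that fit 0.62% of all tested genes passed, and S1pr1 was the only member that did. WT replicate 1 was the only WT array inside the KO range, so leaving it out widens the difference by construction. With any other single array left out, the limma adjusted p was 0.0654 (without KO replicate 1) to 0.322 (without WT replicate 2). With all 8 arrays and limma array weights the difference was -0.45 and passed (limma adjusted p = 0.0122). In the fit with array weights, 1980 of 11926 tested genes passed.

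S1pr4, the S1P receptor largely restricted to blood and lymphoid cells, read 9.64, 9.66, 9.63 and 9.60 in KO replicates 1 to 4, against 9.60, 9.62, 9.75 and 9.91 in WT replicates 1 to 4. The KO arrays were close together and WT replicates 1 and 2 lay among them. The difference was -0.09 ± 0.0684 (SE, 95% interval -0.24 to 0.07, limma adjusted p = 0.604), and it was -0.02 without WT replicate 4.

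**Figure D2:**
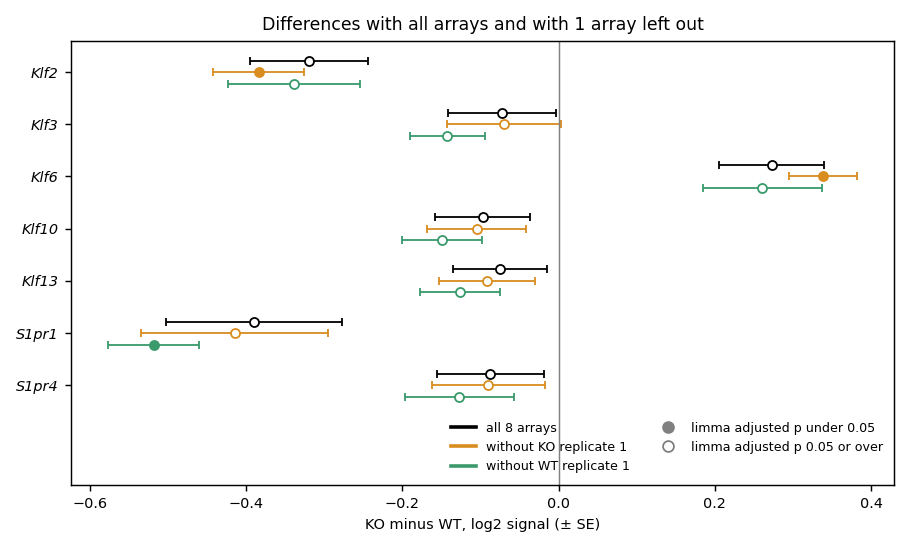
KO minus WT on the log2 scale (x axis, bars ± SE) for each member with all 8 arrays (black), without KO replicate 1 (orange) and without WT replicate 1 (green); filled points have a limma adjusted p under 0.05. Klf2 and Klf6 are filled only without KO replicate 1 and S1pr1 only without WT replicate 1, and no member changes sign.

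The members shared a pattern within the WT group. WT replicate 1 was the lowest of the 4 WT arrays in 7 of 7 members, and in 26.3% of all tested genes. In Klf2, Klf6 and S1pr4 it was only just below WT replicate 2 (9.10 against 9.14, 9.95 against 9.97 and 9.60 against 9.62). With WT replicate 1 left out, the KO and WT arrays did not overlap in 6 of 7 members (S1pr4 was the exception) and in 14.8% of all tested genes. Taking out the lowest WT array widens the gap of any gene that is lower in KO, so this count follows from the pattern and supports nothing beyond it. The differences without it were -0.14 for Klf3, -0.15 for Klf10 and -0.13 for Klf13, with limma adjusted p of 0.216, 0.229 and 0.299. Without WT replicate 2 the difference of Klf3 was -0.04, and without WT replicate 4 those of Klf10 and Klf13 were -0.07 and -0.04. With any 1 of the other 7 arrays left out, the groups did not overlap in 2 of 7 members, Klf2 and Klf6. Without KO replicate 1 they did not overlap in 22.6% of all tested genes. With each of the rest of these arrays left out, the share was 12.1% (WT replicate 2) to 16% (WT replicate 4). The correlation of deviations from the group means over the 8 arrays was 0.934 for Klf3 with S1pr1, 0.935 for Klf13 with S1pr1 and 0.913 for Klf3 with Klf13, against 0.51 for Klf2 with S1pr1. Over the 7 arrays without WT replicate 1 they were 0.322, 0.745 and 0.611, against 0.938 for Klf2 with S1pr1. So the order of these pairs depended on 1 array. The arrays share the normalization, and the correlations are descriptions with no test.

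Genes with patterns most like Klf2 over the 8 arrays were Cited2, a transcriptional co-regulator (r = 0.986), Ablim1, an actin-binding protein (0.979), Gsn, the actin-severing protein gelsolin (0.978), Il21r, the IL-21 receptor (0.974), and Rbm24, an RNA-binding protein (0.964). Within the groups r was 0.907 to 0.97 for these 5. Like Klf2, Cited2 was higher in KO replicate 1 (10.00) than in KO replicates 2, 3 and 4 (9.97, 9.84 and 9.83), and below all WT arrays (10.07 to 10.16). Il21r, the receptor of a cytokine in the culture, read 11.71, 11.58, 11.48 and 11.51 in KO replicates 1 to 4, against 11.74, 11.83, 11.82 and 11.81 in WT replicates 1 to 4. Its difference was -0.23 (limma adjusted p = 0.0851), and none of the 5 passed over all arrays.

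Genes most like S1pr1 were Pxmp4, a peroxisomal membrane protein (r = 0.992), Btg1, an antiproliferative factor of resting lymphocytes (0.987), Il10ra, the ligand-binding chain of the IL-10 receptor (0.969), Bcl3, an atypical member of the I-kappa-B family (0.963), and Esyt1, an extended synaptotagmin (0.962). Il10ra read 8.56, 8.51, 8.57 and 8.54 in KO replicates 1 to 4, against 8.45, 9.10, 9.19 and 9.22 in WT replicates 1 to 4. Btg1 read 12.35, 12.34, 12.25 and 12.29 in KO replicates 1 to 4, against 12.28, 12.47, 12.50 and 12.50 in WT replicates 1 to 4. In Btg1, WT replicate 1 lay inside the KO range, as in S1pr1, and in Il10ra it lay below every KO array. The limma adjusted p of these 5 genes ranged from 0.153 to 0.496. The genes were chosen for this likeness out of all tested genes, so the values describe these 8 arrays.

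**Figure D3:**
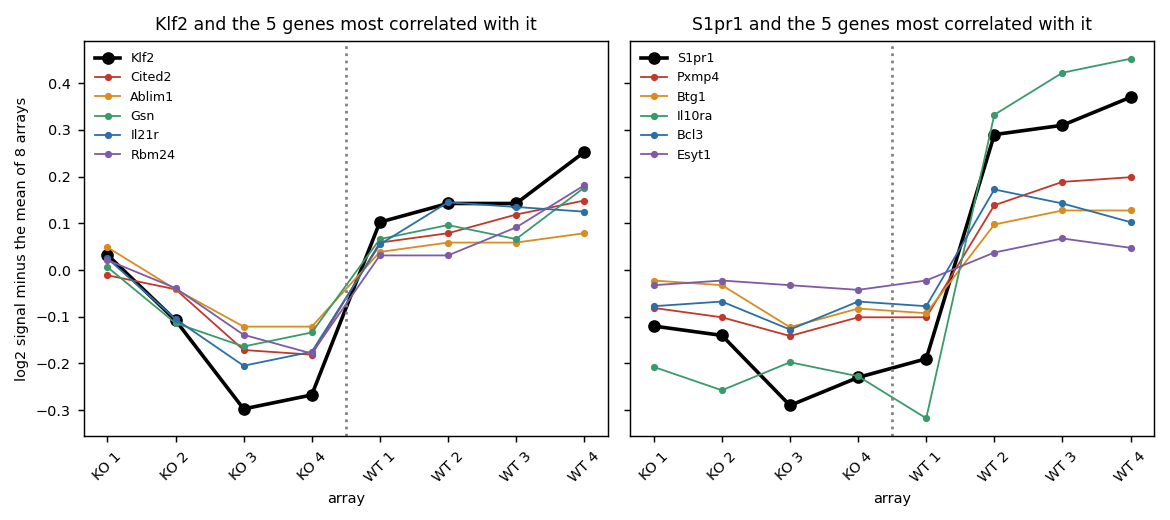
Log2 signal minus each gene's mean over the 8 arrays (y axis) in the KO arrays and then the WT arrays (x axis), for Klf2 (left panel) and S1pr1 (right panel) in black, each with the 5 genes most correlated with it in colour; lines join the values of 1 gene. KO replicate 1 is the highest KO array for Klf2 (9.03), and WT replicate 1 is the lowest WT array for S1pr1 (9.79) and the 5 genes plotted with it.

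Of the other Klf and Sp factors, 20 were on the array and 13 could be tested. None passed (limma), and 1, Klf7, had an unadjusted p under 0.05, against 16.6% of all tested genes. Klf7 read 10.10 to 10.14 in KO arrays and 9.95 to 10.10 in WT arrays, a difference of 0.115 ± 0.0472 (SE, limma adjusted p = 0.256). Klf9, a ubiquitous factor induced by glucocorticoids, read 8.40 to 8.63 in KO arrays and 8.41 to 8.91 in WT arrays, with WT replicate 1 the lowest WT array. The median difference of the 13 was -0.03. The general factors Sp1 and Sp3 differed by 0.00 and -0.04.

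Of 16 tested genes that act upstream of Klf2, 12 had a negative difference (58.7% of all tested genes did), with a median of -0.06. None passed (limma), and 4 had an unadjusted p under 0.05, against 16.6% of all tested genes. A kinase cascade ending in the kinase Erk5 (Mapk7) and the Mef2 factors is known to induce Klf2. Map3k2, a kinase at its top, read 9.17, 9.33, 9.35 and 9.33 in KO replicates 1 to 4, against 9.53, 9.53, 9.42 and 9.49 in WT replicates 1 to 4. Its groups did not overlap, with a difference of -0.20 ± 0.0543 (SE, limma adjusted p = 0.107; with limma quantile normalization the adjusted p was 0.0471). Mapk7 differed by -0.12 (limma adjusted p = 0.278) and Mef2d, whose groups did not overlap, by -0.13 (limma adjusted p = 0.219). Foxo1, the factor that keeps Klf2 on in naive cells, read 10.46 to 10.55 in KO arrays and 10.52 to 10.71 in WT arrays, a difference of -0.13 ± 0.0529 (SE, limma adjusted p = 0.246). Again WT replicate 1 was the lowest WT array. Pik3r1, Wwp1 and Smurf1, a subunit of PI3-kinase and a pair of ubiquitin ligases, differed by 0.08, 0.06 and 0.05, with limma adjusted p of 0.469 to 0.778. Pik3cd, Akt1, Akt2 and Fbxw7 of the same list differed by -0.135, -0.075, -0.055 and -0.0575 (limma adjusted p of 0.34 to 0.753). The groups of Akt1 did not overlap. Mef2a differed by 0.005, Foxo3 by -0.0425, Map3k3 by -0.04, Foxo4 by -0.035 and Map2k5 by -0.0675.

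Of the partners and targets of Klf factors, 7 were tested, and the median was -0.04. None passed (limma), and 1, Hdac1, had an unadjusted p under 0.05, against 16.6% of all tested genes. The histone deacetylase Hdac1 read 12.47 to 12.67 in KO arrays and 12.27 to 12.46 in WT arrays, a difference of 0.19 ± 0.0636 (SE, limma adjusted p = 0.167). Ctbp1, the corepressor of Klf3, differed by -0.04 and the Klf13 target Ccl5 by -0.06.

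Of the other S1P receptors and the genes of S1P receptor signalling, 11 were tested, and the median was -0.02. An unadjusted limma p under 0.05 was found in 3 of the 11, against 16.6% of all tested genes, and none passed (limma). Gnaq, the alpha subunit of a G protein that couples receptors to phospholipase C, came nearest. It read 8.88, 9.06, 8.95 and 9.09 in KO replicates 1 to 4, against 8.67, 8.52, 8.65 and 8.80 in WT replicates 1 to 4. Every KO array was above every WT array, with a difference of 0.34 ± 0.0701 (SE, limma adjusted p = 0.0524). It passed without KO replicate 1 (limma adjusted p = 0.0147) and without WT replicate 4 (0.0455). Each was the array of its group nearest to the other group, so leaving it out widens the difference by construction. Without KO replicate 1, 6.56% of all tested genes passed, and without WT replicate 4, 107 of 11926 did. Gnaq did not pass with any other single array left out. With all 8 arrays it passed with quantile normalization (limma adjusted p = 0.0181), the 50th percentile filter (0.039), the trended robust prior (0.036) and array weights (0.00229). In these fits 322, 229, 354 and 1980 of all genes passed. Gnaq did not pass with median centring, no filter, the mean over probe sets or the replicate block. Gnai2 and Gnai3, the inhibitory G proteins that S1pr1 uses, differed by -0.02 and 0.02 (limma adjusted p of 0.869 and 0.91). Gna13, the subunit through which S1pr2 holds germinal centre cells in place, differed by 0.13 (limma adjusted p = 0.34), and passed without KO replicate 1 (limma adjusted p = 0.0269). That array was its lowest KO array (11.66), and 6.56% of all tested genes passed in that fit. The receptor gene S1pr2 differed by 0.03 and S1pr5 by -0.02, while S1pr3 was below the filter in all 8 arrays. Dnm2, the dynamin of receptor endocytosis, read 11.17 to 11.22 in KO arrays and 11.27 to 11.35 in WT arrays (limma adjusted p = 0.24), and Arrb1, a beta-arrestin, differed by -0.14 (limma adjusted p = 0.247).

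Enzymes and transporters of S1P and its ceramide precursors numbered 14 tested genes, none of which passed (limma), with a median of 0.06. Of the 14, 2 had an unadjusted limma p under 0.05, where 16.6% of all tested genes did. The 2 were Sgpl1, the S1P lyase that destroys S1P irreversibly, which differed by -0.14 (limma adjusted p = 0.254), and Plpp2, a lipid phosphatase, by -0.16 (limma adjusted p = 0.288). Sphk1 and Sphk2, the kinases that make S1P, differed by 0.12 and -0.08 (limma adjusted p of 0.583 and 0.509). Acer3, an alkaline ceramidase, read 7.71 to 8.21 in KO arrays and 7.73 to 7.88 in WT arrays, a difference of 0.18 (limma adjusted p = 0.389) that passed without KO replicate 1 (limma adjusted p = 0.0261). That array was its lowest KO array (7.71), and 6.56% of all tested genes passed in that fit.

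Of 8 tested trafficking and receptor genes tied to Klf2, 4 had positive and 4 negative differences, and the median was -0.06. The list was not sorted by the direction in which Klf2 acts on each gene, so the signs were only counted. None passed (limma), and 3 had an unadjusted p under 0.05, against 16.6% of all tested genes. Ccr7, the receptor that brings T cells into lymph nodes, read 13.02 to 13.09 in KO arrays and 12.92 to 12.99 in WT arrays, a difference of 0.10 ± 0.042 (SE, limma adjusted p = 0.267). Il7r, the IL-7 receptor chain, read 9.18, 9.49, 9.35 and 9.42 in KO replicates 1 to 4, against 8.02, 8.64, 8.64 and 9.10 in WT replicates 1 to 4. All KO arrays were above all WT arrays, and WT replicate 1 was far below the others. The difference was 0.76 ± 0.185 (SE, limma adjusted p = 0.0794), and Il7r passed without KO replicate 1 (limma adjusted p = 0.0381) and without WT replicate 4 (0.0355). Each was the array of its group nearest to the other group, so leaving it out widens the difference by construction. Without KO replicate 1, 6.56% of all tested genes passed, and without WT replicate 4, 107 of 11926 did. Il7r did not pass with any other single array left out. With all 8 arrays it passed with the trended robust prior (limma adjusted p = 0.0431) and array weights (0.00439), where 354 and 1980 of all genes passed. It did not pass with the other alternatives that kept all 8 arrays. Itgal, the alpha chain of the integrin LFA-1, read 11.37 to 11.47 in KO arrays and 11.53 to 11.69 in WT arrays, a difference of -0.20 ± 0.0499 (SE, limma adjusted p = 0.0841; with limma quantile normalization the adjusted p was 0.0483). Cd69, whose protein removes S1pr1 from the cell surface, read 12.20 to 12.35 in KO arrays and 12.23 to 12.37 in WT arrays (limma adjusted p = 0.937). The integrin gene Itgb7 differed by 0.01, the chemokine receptor gene Cxcr3 by -0.16 and Cxcr5 by -0.26, with limma adjusted p of 0.361 to 0.964.

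**Figure D4:**
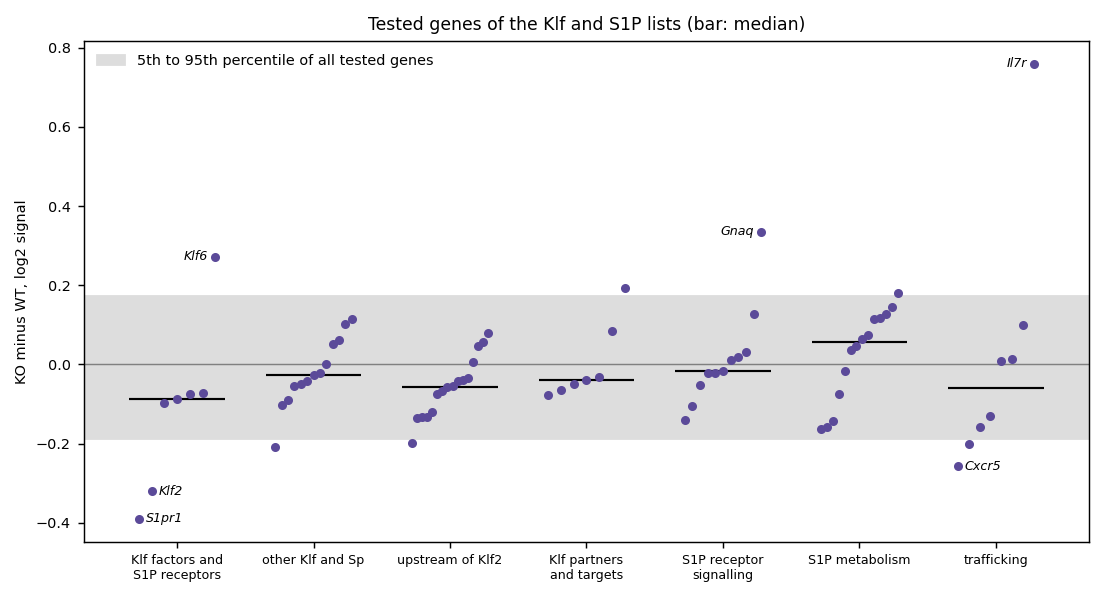
KO minus WT on the log2 scale (y axis) of each tested gene (point) in the members and the 6 lists around them (x axis), with the list median as a bar; the grey band spans the 5th to 95th percentile of all tested genes, -0.19 to 0.17. S1pr1, Klf2, Klf6, Gnaq and Il7r lie furthest outside the band, and none of the points passed the test over all 8 arrays.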

How the data were processed

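Values deposited by the authors are log2 signals per probe set, given to 2 decimals, made with RMA and Partek per the submitters' processing notes. Versions and the annotation release are not given in the sources used here. RMA gives the arrays nearly equal distributions, which hides any change in the total RNA of a cell. The number of arrays limits the precision.

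Of 35556 probe sets, 21789 had 1 gene symbol in the platform annotation, 1621 had several and were not used, and 12146 were not listed. The probe set with the highest mean stood for a gene. A gene was tested if its value was above the 40th percentile of the array's single-symbol probe sets in at least 4 arrays (11926 genes, with Bcl6 kept at any level). The comparison of KO with WT used lmFit and eBayes of limma 3.58.1 (R 4.3.3, two-sided), and p-values were adjusted by Benjamini-Hochberg across every tested gene. Exact permutation tests were two-sided. The members and lists were chosen with earlier results of these data known. Named genes are the members, Bcl6, list members and the 5 genes with the highest Pearson r with Klf2 and with S1pr1 (predicted genes, clones and small RNAs left out). Levels were not compared between probe sets.

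On 20 simulated data sets of 11926 genes, made from these arrays' means and spreads, a true log2 change of 0.5 was recovered in 86% and one of 1 in 98.95% of changed genes, and 5.03% of calls were false. Over all 8 arrays every member difference was smaller than 0.5, the largest being -0.39 for S1pr1. Recovery of changes of that size was not simulated, so these shares do not apply to the members. Same-numbered KO and WT arrays deviated from their group means with correlations of 0.01, 0.14, -0.17 and 0.31, so the numbers were not taken as pairs. The alternatives were 2 other normalizations, 2 other filters, a trended robust prior, array weights, the mean over probe sets, the replicate block, arrays left out and other thresholds.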

Additional observations from a re-analysis of the deposited data

Results flagged for a closer look

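S1pr1 in WT replicate 1, at 9.79, lay far from the other 3 WT arrays, which read 10.27 to 10.35. The gap to the nearest of them was 0.857 of the range of the WT group, above Dixon's critical value for 4 samples. It was the only such value among 16 groups of 4 examined (7 members and Bcl6, each in KO and WT), where chance flags about 5% of groups.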

How the results depend on the processing

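No member changed sign under any of the 17 alternative fits. Klf2 ranged from -0.39 to -0.27, Klf6 from 0.24 to 0.35 and S1pr1 from -0.52 to -0.33. Members past the threshold, 0 over all arrays, numbered 1 with quantile normalization (Klf6), 2 with the trended robust prior (Klf2, limma adjusted p = 0.0497, and Klf6), 3 with array weights (Klf2, Klf6 and S1pr1), 2 without KO replicate 1 and WT replicate 3 together (Klf2 and Klf6), 2 at a threshold of 0.1, and 0 to 2 with single arrays left out. List genes past the threshold, 0 over all arrays, numbered 3, 3, 12 and 1 under the first 4 of these, 1 with the filter at the 50th percentile, and 0 to 4 with single arrays left out. The 6 lists held 7 to 16 tested genes each. In the fit with array weights, which gave the 12, 1980 of 11926 tested genes passed. Array weights gave KO replicate 1 a weight of 0.176. All genes past the threshold numbered 157 (77 higher and 80 lower in KO), and 322 with quantile normalization, 78 with median centring (48 higher and 30 lower), 58 with no filter, 354 with the trended robust prior, 1980 with array weights, 443 without KO replicate 1 and WT replicate 3, 27 and 468 at thresholds of 0.01 and 0.1, and 31 to 782 with single arrays left out. With the replicate block 36 genes and 0 members passed; the labels do not say that a number pairs arrays. No member has another probe set to compare. The cause of these differences was not tested.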
